A study of Mus musculus with 72 samples.

Results

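The genes described here are 10 mouse genes of MHC class I antigen presentation, H2-K1, H2-D1, B2m, Tap1, Tap2, Tapbp, Psmb8, Psmb9, Psmb10 and Nlrc5, out of 36047 mouse gene identifiers in each tissue table. They were taken by name, with the identifiers of the tables matched to GENCODE M21 symbols, and all 10 were found in all 6 tables and passed the filter on low values in every tissue. The mice carried an EGFR DEL19 transgene, a constitutively active human EGFR, and all of them had received doxycycline for 25 days before treatment, so the transgene and the drug are common to every group. CMV-GE11-siRE mice received a DNA circuit with a CMV promoter that encodes an siRNA against EGFR together with GE11, a peptide that binds EGFR. CMV-siRE mice received the same siRNA circuit without the peptide, and CMV-scrR mice, the controls, received a circuit with a scrambled RNA. Each circuit was given into a vein at 10 mg/kg on 7 occasions, 2 days apart, and tissues were taken on day 14. Total RNA of lung, liver, spleen, kidney, thymus and lung tumour was sequenced in 4 libraries per circuit and tissue, 72 in all. The labels give neither age nor strain, do not state which cells express the transgene, and do not say whether the libraries within a group represent different animals, so p-values measure the spread between these libraries.

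Class I molecules carry short peptides from the cell's own proteins to its surface, where CD8+ T cells read them. H2-K1 and H2-D1 are the heavy chains and B2m is the light chain that every class I molecule needs. Peptides are cut by the proteasome, in which Psmb8, Psmb9 and Psmb10 replace the constitutive catalytic subunits Psmb5, Psmb6 and Psmb7 to form the immunoproteasome. Tap1 and Tap2 together form the pump that moves peptides into the endoplasmic reticulum, and Tapbp (tapasin) holds empty class I molecules at that pump while they are loaded. Nlrc5 is a transcriptional activator of class I genes, and interferon-gamma, acting in part through Irf1, is the best known inducer of the whole set.

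In GENCODE M21, on the GRCm38 genome, 7 of the 10 genes lie on chromosome 17, which holds the mouse major histocompatibility complex. These are Tapbp (ENSMUSG00000024308.15) at 33915899 to 33929292 on the plus strand, H2-K1 (ENSMUSG00000061232.16) at 33996017 to 34000347 on the minus strand, Psmb9 (ENSMUSG00000096727.3) at 34181987 to 34187764 on the minus strand, Tap1 (ENSMUSG00000037321.17) at 34187553 to 34197225 on the plus strand, Psmb8 (ENSMUSG00000024338.15) at 34197721 to 34201454 on the plus strand, Tap2 (ENSMUSG00000024339.12) at 34203527 to 34216321 on the plus strand and H2-D1 (ENSMUSG00000073411.11) at 35262730 to 35267499 on the plus strand. Psmb9, Tap1, Psmb8 and Tap2 sit side by side within 34.3 kb. Chromosome 8 holds Nlrc5 (ENSMUSG00000074151.13) at 94434356 to 94527272 on the plus strand and Psmb10 (ENSMUSG00000031897.9) at 105935735 to 105938444 on the minus strand, and chromosome 2 holds B2m (ENSMUSG00000060802.8) at 122147686 to 122153083 on the plus strand. All 10 are protein-coding. H2-K1 and H2-D1 share 9.63% and 12.8% of their distinct 50-base transcript stretches with other genes, most of all H2-Q10 and H2-Q1, so their values are uncertain to the extent that reads were divided among class I genes. Exons of Tap1 and Psmb9 overlap by 212 bases on opposite strands, and exons of Tapbp, Tap2, Psmb8 and Nlrc5 overlap other annotated genes by between 78 and 904 bases. Whether the counting used strand is not given in the sources used here, so reads from these overlaps cannot be assigned with certainty.

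The sequences that precede the start sites are shown for the genes whose shared control elements are best known, the class I chains and the pair Psmb9 and Tap1, which are transcribed away from each other. RefSeq (GRCm38.p6) gave promoter windows for 8 of the 10 genes, and Tap2 and Nlrc5 had no entry; H2-K1 has a second, downstream start that is not shown. Each run below is the 250 bases before the RefSeq start, read 5′ to 3′ on the strand of the gene: chr17:34000348-34000597 (minus) for H2-K1, chr17:35262844-35263093 (plus) for H2-D1 and chr2:122147437-122147686 (plus) for B2m.
H2-K1: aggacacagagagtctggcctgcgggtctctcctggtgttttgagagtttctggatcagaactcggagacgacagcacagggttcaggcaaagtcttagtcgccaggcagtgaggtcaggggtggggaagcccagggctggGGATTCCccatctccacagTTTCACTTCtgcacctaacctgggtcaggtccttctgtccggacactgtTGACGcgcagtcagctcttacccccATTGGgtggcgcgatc
H2-D1: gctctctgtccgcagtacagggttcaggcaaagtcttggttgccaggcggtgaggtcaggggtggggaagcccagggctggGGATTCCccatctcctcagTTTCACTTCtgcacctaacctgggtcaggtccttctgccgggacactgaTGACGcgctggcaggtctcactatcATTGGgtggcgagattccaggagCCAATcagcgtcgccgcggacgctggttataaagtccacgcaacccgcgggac
B2m: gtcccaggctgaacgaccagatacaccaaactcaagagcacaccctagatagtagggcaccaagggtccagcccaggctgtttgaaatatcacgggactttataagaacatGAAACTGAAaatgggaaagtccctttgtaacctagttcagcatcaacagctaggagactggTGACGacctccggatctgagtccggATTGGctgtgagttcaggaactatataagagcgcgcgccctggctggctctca
The 225 bases between the RefSeq starts of Psmb9 and Tap1, chr17:34187331-34187555 on the plus strand, lie before both RefSeq starts. GENCODE M21 places the starts of Psmb9 and H2-D1 farther upstream than RefSeq does, so that this stretch lies within its Psmb9 and the H2-D1 window within its H2-D1.
Psmb9 to Tap1: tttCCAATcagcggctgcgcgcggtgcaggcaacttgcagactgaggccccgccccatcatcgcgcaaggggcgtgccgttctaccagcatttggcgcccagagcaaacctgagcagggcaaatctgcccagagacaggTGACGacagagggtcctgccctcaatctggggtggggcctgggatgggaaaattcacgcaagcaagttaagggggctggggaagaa
Capitals mark matches, on either strand, to the letters GGATTCC (the core of a kappa-B site), GAAANNGAA and GAANNGAAA (forms of interferon regulatory factor sites that can overlap), TGACG (the core of the X2 box) and CCAAT (the Y box). The X2 and Y boxes belong to the element through which Nlrc5 acts. These motifs were chosen with the windows in view. A match is a description of the letters and was not tested for binding.

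The windows of H2-K1 and H2-D1 held 4 of these elements in the same order, a kappa-B core, an interferon regulatory factor site, an X2 core and a Y box, and shared a run of 47 identical bases. B2m held an interferon regulatory factor site, an X2 core and a Y box in that order. The Psmb9 to Tap1 stretch held an X2 core and a Y box, with the Y box first on the strand of Tap1. The Y box lay 222 to 218 and the X2 core 86 to 82 bases before the Tap1 start. They were thus farther apart than in B2m, with its X2 core at 78 to 74 and Y box at 53 to 49 bases. An X2 core together with a Y box occurred in 6.12% of all 32851 RefSeq windows of 250 bases, and both with an interferon regulatory factor site in 0.679%. Singly, TGACG occurred in 17.8% of the windows, CCAAT in 33.85%, GAANNGAAA in 6.31%, GAAANNGAA in 7.13% and GGATTCC in 3.17%. The window of Tapbp held Y boxes alone, and the windows of Psmb8 and Psmb10 held none of these letters. The windows of Tapbp (33919228 to 33919477) and Psmb8 (34197945 to 34198194) lie within those genes as GENCODE M21 places them. The bases before their GENCODE starts were not searched. The Psmb10 window (105938393 to 105938642) overlaps its GENCODE gene in part.

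Approximate depth was 12.2 M to 20.9 M reads per library, taking the most frequent value above 0 and under 5 as a single read. Of low values, 50.3% to 72.6% were whole multiples of that value within a tolerance of 0.1, so the depth is rough. Each library listed 15523 to 21522 genes above 0. Summed over genes, a deposited column held 16.9 M to 21.38 M in lung, liver, kidney, spleen and thymus, and 5.87 M to 43.81 M in tumour. The labelled tissues carried their markers: in CMV-scrR libraries the summed kidney tubule list was 323266 to 361808 in kidney against 21.02 to 48.5 in liver, thymocyte genes summed to 91434 to 113400 in thymus, B cell genes to 43293 to 66612 in spleen, and alveolar type 2 genes to 268987 to 343276 in lung and 47634 to 124856 in tumour. The human EGFR transcript, the target, had 39.2 to 132 in tumours given CMV-GE11-siRE, 452 to 1324 with CMV-siRE and 1992 to 4025 with CMV-scrR. By limma its log2 fold change against CMV-scrR was -5.19 (adjusted p = 2.19e-05) with CMV-GE11-siRE. With CMV-siRE it was -1.88 (adjusted p = 0.055), which did not pass. Mouse Egfr passed the test in 1 of 12 comparisons with CMV-scrR, at -0.37 (adjusted p = 0.028) in liver with CMV-GE11-siRE. Mitochondrial genes took 20.6% ± 12.5 of the tumour values with CMV-GE11-siRE, 60.1% ± 11.6 with CMV-siRE and 68.6% ± 3.77 with CMV-scrR (SD, n = 4 each), which bears on every tumour result. The Y-linked gene Ddx3y had 330 to 422 in 4 tumour libraries (CMV-GE11-siRE replicate 2, CMV-siRE replicates 2 and 4, CMV-scrR replicate 2), against at most 22.9 in all 60 organ libraries, so tumours and organs of the same replicate number need not come from the same animal. Kidney and thymus libraries of CMV-GE11-siRE replicate 4 stood apart from the rest of their tissue: Ptprc, the pan-leukocyte gene CD45, had 22454, 18384, 22499 and 3179 in the CMV-GE11-siRE thymus libraries. The rest of the leukocyte list was not lower in that group. Against CMV-scrR in thymus, log2 fold changes were -1.04 for Ptprc, 0.50 for Cd52, 0.23 for Coro1a, 0.06 for Cd53 and 0.05 for Laptm5. None of these passed.

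The first question is where these genes are expressed. Levels across tissues are given as CPM (values rescaled so that each library has the same total) in the CMV-scrR libraries; the 6 tables were normalised separately, so the order of tissues is a description and was not tested. H2-K1 was highest in spleen, at 3200.1 ± 377 CPM (SD, n = 4 here and in the rest of the paragraph), followed by liver (2791 ± 274), lung (2553 ± 261), kidney (1110.0 ± 492), thymus (889 ± 75.4) and tumour (64.5 ± 29.5). The ranges of spleen, liver and lung overlapped in sequence, as did those of kidney and thymus, and the tumour range lay below all others. H2-D1 ran in the order spleen (2957 ± 384), lung (2910.1 ± 265), liver (1668 ± 203), kidney (910.2 ± 314), thymus (831 ± 69.7) and tumour (203 ± 101). B2m was highest in lung, at 2608 ± 245 CPM, with overlapping ranges in spleen (2241 ± 219) and liver (2202 ± 204), then kidney (1341 ± 461), thymus (979 ± 129) and tumour (248 ± 209). Thymus had the lowest mean of the organs for all 3 chains.

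Thymus ranked higher for Tap1, Tap2, Psmb8, Psmb9, Psmb10 and Nlrc5 than it did for the chains. Tap1 had 584 ± 114 CPM in spleen, 410.4 ± 138 in lung, 236 ± 13.4 in thymus, 171 ± 54.5 in liver, 130.4 ± 77.5 in kidney and 7.73 ± 6.09 in tumour (SD, n = 4 each). Tap2 was highest in thymus, at 329 ± 15.2 CPM, with overlapping ranges in lung (289 ± 91.99) and spleen (288 ± 61.6), and it was lower in kidney (94.3 ± 47.1), liver (78.6 ± 18.4) and tumour (8.74 ± 5.95). Psmb8, the chymotrypsin-like immunoproteasome subunit, had 271 ± 55.99 CPM in spleen and 223 ± 16.3 in thymus, whose ranges overlapped, then 181 ± 54.5 in lung, 93.4 ± 22.98 in liver, 68.1 ± 47.1 in kidney and 45.9 ± 30.02 in tumour. Spleen also led for Psmb9 (228 ± 53.6 CPM), Psmb10 (150.1 ± 46.3 CPM) and Nlrc5 (311 ± 39.99 CPM), and lung led for Tapbp (596 ± 154 CPM). On this scale tumour had the lowest mean for all 10 genes, with a range that overlapped that of kidney for Psmb8, Psmb9 and Psmb10. In tumour Nlrc5 had 4.84 ± 4.82 CPM, an SD close to its mean, and mitochondrial genes held most of the values of these libraries. With those genes left out of the total, tumour H2-K1 was 203 ± 87.6 CPM and tumour B2m 746 ± 535 CPM. Tumour then kept the lowest mean for 7 of the 10 genes but not for the immunoproteasome subunits. On that scale Psmb8 was 140.1 ± 74.4 CPM in tumour, 98.8 ± 24.1 in liver and 77.4 ± 53.4 in kidney, Psmb9 was 60.4 ± 41.3 in tumour and 45.7 ± 27.4 in kidney, and Psmb10 was 62.3 ± 29.1 in tumour and 57.97 ± 30.4 in kidney, with overlapping ranges.

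**Figure D1:**
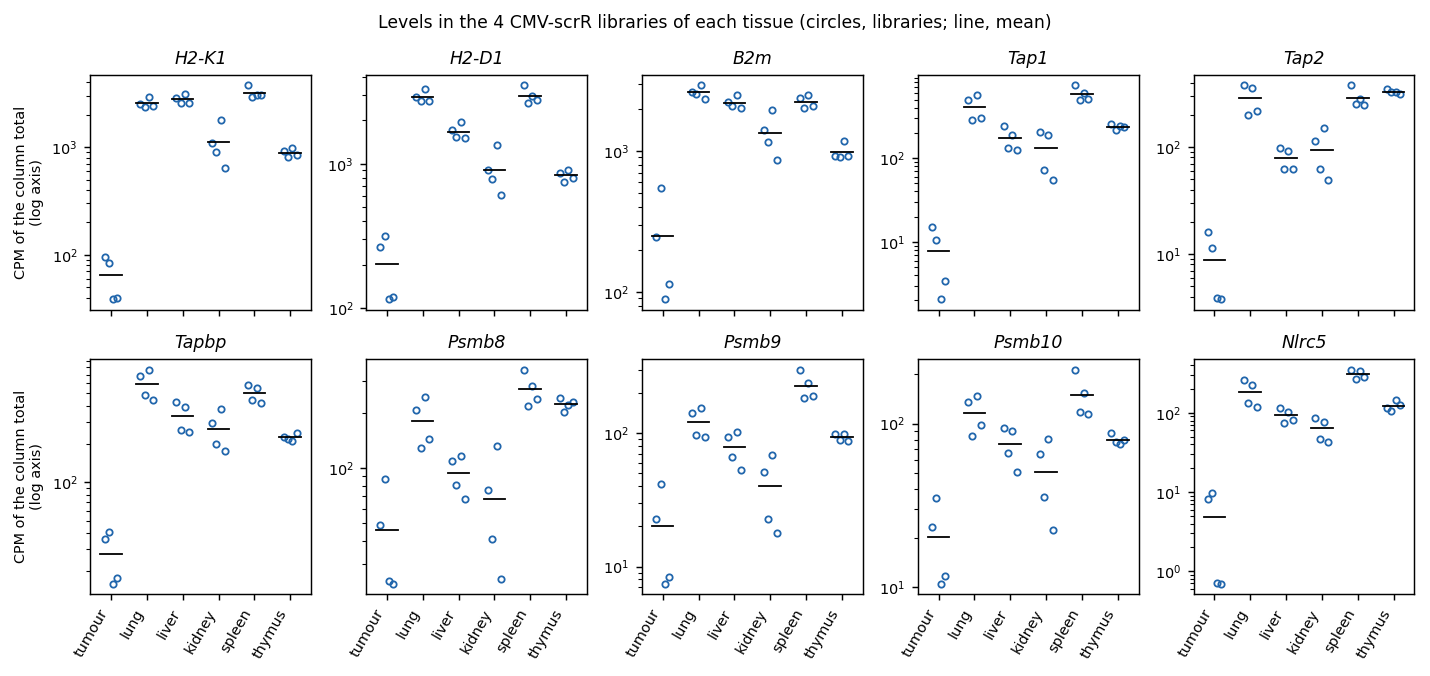
Level of each of the 10 genes in the 4 CMV-scrR libraries of each tissue, as CPM of the column total on a log axis; circles are libraries and lines are means. On this scale all 10 genes have their lowest mean in tumour, which with mitochondrial genes left out of the total holds for 7 of them, and spleen has the highest mean for H2-K1, H2-D1, Tap1, Psmb8, Psmb9, Psmb10 and Nlrc5.

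Between genes, levels were compared per kb of exon within a tissue, on the scale of mean CPM per kb in CMV-scrR libraries. In lung the light chain B2m came first at 3033, followed by H2-D1 at 1128 and H2-K1 at 869. Tapbp followed at 164, then Tap2 at 76.4, Tap1 at 75.0, Psmb10 at 68.2, Psmb8 at 53.6, Psmb9 at 33.4 and Nlrc5 at 21.5. The activator Nlrc5 was thus the least abundant and the chains the most. In thymus B2m, H2-D1 and H2-K1 led in the same order, at 1138, 322 and 303, and Nlrc5 was again last at 14.4.

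Against the control circuit, members of this pathway fell in liver and spleen with both siRNA circuits and in lung with CMV-siRE. In liver, 5 of 10 fell with CMV-GE11-siRE and 4 of 10 with CMV-siRE. In spleen, 8 of 10 fell with CMV-GE11-siRE and 3 of 10 with CMV-siRE. The spleen count with CMV-GE11-siRE was 5 of 10 in a fit of the 8 libraries compared alone, 5 of 10 with no filter on low values and 3 of 10 with the replicate number as a block. In those settings 1.54%, 1.34% and 1.08% of all tested genes passed as lower, in that order. In lung, 3 of 10 fell with CMV-siRE. A fit of the 8 lung libraries compared gave 1 of 10, with 1.28% of all tested genes passing as lower. With CMV-GE11-siRE 0 of 10 passed in lung, although the estimate was below 0 for all 10 in all 6 of these comparisons. Tap1, Tapbp and Nlrc5 passed in each of the 5 comparisons that made any call. Fold changes are differences of log2(value + 1), tested with limma over all genes of a tissue and adjusted by Benjamini-Hochberg with a threshold of 0.05, and both comparisons of a tissue share the same 4 CMV-scrR libraries.

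The share of all tested genes that passed as lower was small beside these counts. With CMV-GE11-siRE it was 2.04% in liver, 3.47% in spleen and 0% in lung, where 0 of 16165 genes passed in either direction, 1277 genes and all 10 members had an unadjusted p under 0.05, and 6 members had an exact permutation p under 0.05. With CMV-siRE it was 1.97% in liver, 2.88% in spleen and 0.928% in lung. The median log2 fold change of the 10 genes with CMV-GE11-siRE was -0.70 in liver, -0.67 in spleen and -0.53 in lung, and with CMV-siRE it was -0.60, -0.52 and -0.53 in those organs, while the median over all tested genes lay between 0.00119 and 0.00570. All 4 CMV-GE11-siRE libraries lay below all 4 CMV-scrR libraries for 10 of 10 genes in spleen, 4 of 10 in liver and 6 of 10 in lung, against 7.37%, 5.68% and 2.48% of all tested genes. For CMV-siRE the counts were 6 of 10 in spleen, 7 of 10 in liver and 4 of 10 in lung, against 7.06%, 6.59% and 7.13% of all tested genes. These are bulk samples, in which fewer cells of a type and less RNA per cell cannot be told apart.

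**Figure D2:**
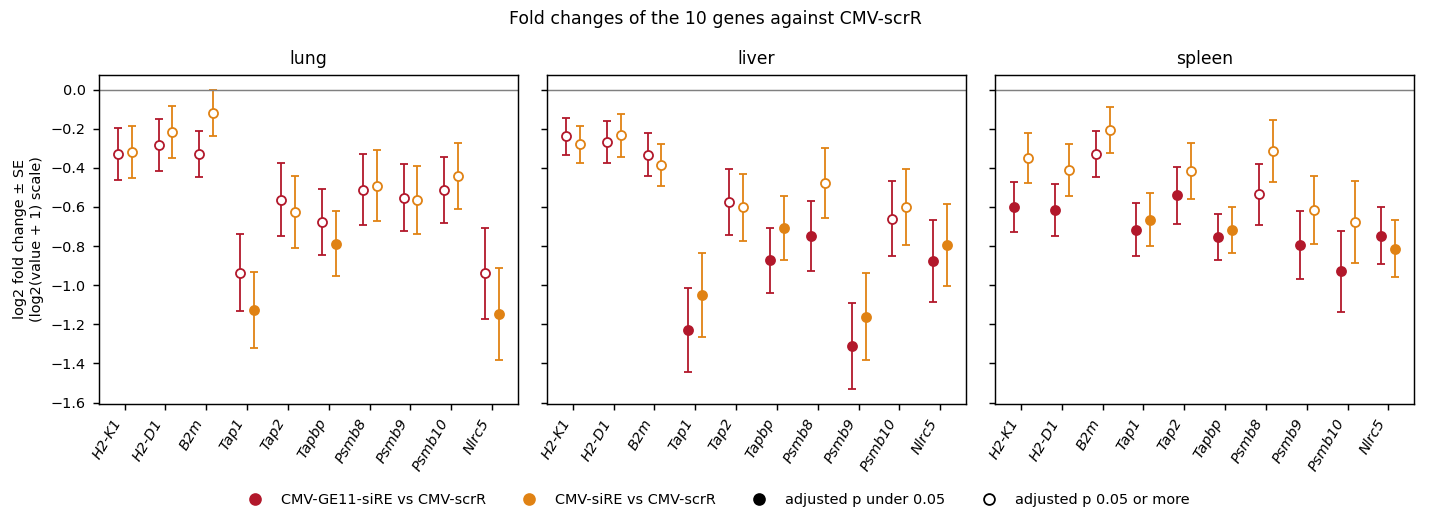
Log2 fold change with standard error of each of the 10 genes with CMV-GE11-siRE (red) and CMV-siRE (orange) against CMV-scrR in lung, liver and spleen; filled points passed the adjusted threshold of 0.05. All 60 estimates lie below 0, and those of H2-K1, H2-D1 and B2m are nearest to 0 in lung and liver.

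The control libraries were uneven, and this touches every count above. In lung, liver, spleen and kidney, replicates 1 and 3 were the highest of the 4 CMV-scrR libraries for 10 of 10 genes, whereas this held for 3 of 10 genes in thymus and 0 of 10 in tumour. The labels use the same code for a replicate in each organ but do not state that it is 1 animal. With both of these libraries left out, a setting chosen after their values were seen, 0 of 10 genes passed in liver with either circuit. In spleen 1 of 10, Tapbp, passed with each circuit (-0.53, adjusted p = 0.04 with CMV-GE11-siRE and -0.50, adjusted p = 0.0275 with CMV-siRE), and in lung 1 of 10, Tap1, passed with CMV-siRE (-0.69, adjusted p = 0.0438) and 0 of 10 with CMV-GE11-siRE. Calls over all tested genes were also fewer in this setting. With CMV-GE11-siRE, 0.174% of them passed as lower in liver, 0.221% in spleen and 0% in lung. With CMV-siRE the shares were 0.334%, 0.876% and 0.212% in those organs. The median log2 fold change of the 10 genes was then -0.40 in liver, -0.48 in spleen and -0.21 in lung with CMV-GE11-siRE, and -0.31, -0.29 and -0.20 in those organs with CMV-siRE, with 2 control libraries left in place of 4.

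Single libraries also moved the counts. In lung, 1 of 10 passed with CMV-siRE when replicate 1, 2 or 4 of CMV-siRE or replicate 1 or 3 of CMV-scrR was left out, and 1 of 10 passed with CMV-GE11-siRE without replicate 2 or 4 of CMV-scrR. In liver, 1 of 10 passed with CMV-siRE without its replicate 2 or 3 and 2 of 10 without replicate 1 or 3 of CMV-scrR, while 3 of 10 passed with CMV-GE11-siRE without its replicate 1, 2 or 3 or without replicate 1 or 3 of CMV-scrR. In spleen, 5 of 10 passed with CMV-siRE without replicate 4 of CMV-scrR, and with CMV-GE11-siRE 2 of 10 without its replicate 1, 1 of 10 without its replicate 3, 3 of 10 without replicate 1 of CMV-scrR and 5 of 10 without replicate 3 of CMV-scrR.

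Of the class I chains, H2-K1 and H2-D1 fell in spleen with CMV-GE11-siRE, and no chain passed in another organ. In spleen, H2-K1 had 38842, 46009, 37851 and 46019 normalised counts in CMV-GE11-siRE libraries, 46187, 46450.2, 50019 and 57816 in CMV-siRE libraries and 78641, 59868, 60591 and 57589 in CMV-scrR libraries. The CMV-GE11-siRE libraries all lay below the controls, while the highest CMV-siRE library lay above the lowest control. H2-K1 fell by 0.60 ± 0.13 (adjusted p = 0.0222) on the log2 scale with CMV-GE11-siRE, and with CMV-siRE its log2 fold change was -0.35 ± 0.13 (adjusted p = 0.139). H2-D1 had 35698, 45559.9, 34579.6 and 38608 in CMV-GE11-siRE spleens, 40819, 43050.1, 42215 and 51072 in CMV-siRE spleens and 73126, 53202, 58449 and 52450.5 in CMV-scrR spleens. Neither treated group overlapped the controls, and H2-D1 fell by 0.61 ± 0.13 (adjusted p = 0.0231) with CMV-GE11-siRE, with a log2 fold change of -0.41 ± 0.13 (adjusted p = 0.0955) for CMV-siRE. B2m had 33797, 37954, 32522 and 38271 in CMV-GE11-siRE spleens, 36152, 38950.0, 35204 and 45228 in CMV-siRE spleens and 49609.5, 40977, 49171 and 39716 in CMV-scrR spleens, with the CMV-GE11-siRE libraries below the controls and a log2 fold change of -0.33 ± 0.12 (adjusted p = 0.107). In liver and lung the log2 fold changes of the 3 chains, none of which passed with either circuit, lay between -0.39 (B2m, liver, CMV-siRE) and -0.12 (B2m, lung, CMV-siRE).

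Of the peptide pump and its loading partner, Tap1 and Tapbp fell in every organ and comparison of these that made a call. Tap1 in lung had 4264, 3932, 4859 and 3744 normalised counts with CMV-GE11-siRE, 3175, 3809.7, 4077 and 3636 with CMV-siRE and 10063, 5822, 11726 and 5948 with CMV-scrR. Both treated groups lay entirely below the controls, of which replicates 1 and 3 were far above replicates 2 and 4. Tap1 fell by 1.13 ± 0.20 (adjusted p = 0.0141) in lung with CMV-siRE and passed under all 16 alternative settings, and its log2 fold change with CMV-GE11-siRE was -0.94 ± 0.20 (adjusted p = 0.124). In liver, Tap1 had 1126, 1360.4, 1428 and 1942 with CMV-GE11-siRE, 1849, 1253, 1509 and 1983 with CMV-siRE and 4931, 2802, 3732 and 2484 with CMV-scrR, again without overlap. It fell by 1.23 ± 0.21 (adjusted p = 0.00857) with CMV-GE11-siRE and by 1.05 ± 0.21 (adjusted p = 0.0179) with CMV-siRE. In spleen, where Tap1 had 6564, 7139.5, 6369 and 8079 with CMV-GE11-siRE, 6942, 6761, 7828 and 7556 with CMV-siRE and 15474, 9940.3, 11838 and 9657 with CMV-scrR, the groups were likewise separate. The falls in spleen were 0.72 ± 0.14 (adjusted p = 0.0141) with CMV-GE11-siRE and 0.67 ± 0.14 (adjusted p = 0.0145) with CMV-siRE.

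**Figure D3:**
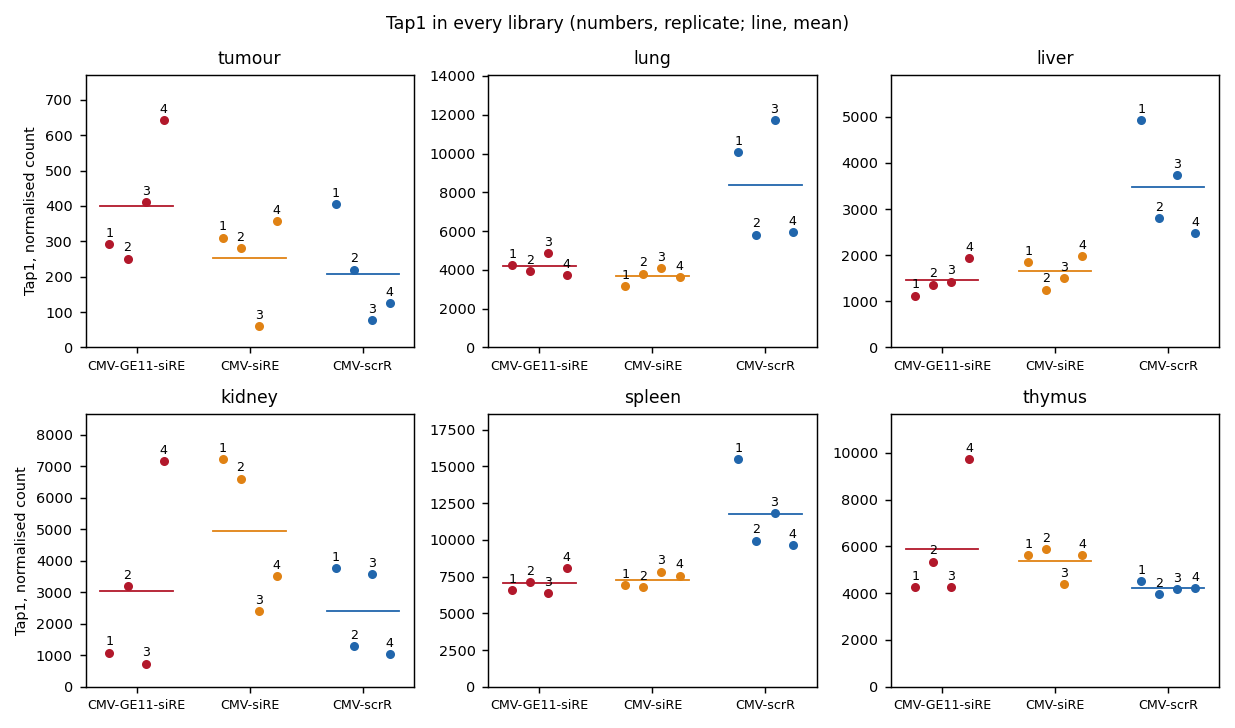
Normalised count of Tap1 in every library by circuit in the 6 tissues; points carry their replicate number, lines are means, and each panel has its own axis from 0. Control replicates 1 and 3 are the highest controls in lung, liver and spleen, and both treated groups lie below all controls there, while kidney libraries spread widely within every circuit.

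Tapbp had 5382, 5817, 6055 and 6296 in CMV-GE11-siRE spleens, 6099, 5823, 6187 and 5991 in CMV-siRE spleens and 12236, 9078, 10896 and 7963 in CMV-scrR spleens. The treated libraries were tightly grouped and all below the controls. Tapbp fell by 0.75 ± 0.12 (adjusted p = 0.00729) with CMV-GE11-siRE and by 0.72 ± 0.12 (adjusted p = 0.00409) with CMV-siRE, and both calls held under all 16 alternative settings. In liver, Tapbp had 3265, 3235, 3804 and 4060.4 with CMV-GE11-siRE, 4281, 3292, 4032 and 4542 with CMV-siRE and 8714, 5411, 7795 and 4998 with CMV-scrR, with no overlap, and fell by 0.87 ± 0.17 (adjusted p = 0.0128) with CMV-GE11-siRE and by 0.71 ± 0.17 (adjusted p = 0.0303) with CMV-siRE. In lung it had 8310.1, 6921, 8175 and 6323 with CMV-GE11-siRE, 6224, 7759.8, 6668 and 6819.6 with CMV-siRE and 13815, 9949, 16122 and 8796 with CMV-scrR. Both treated lung groups lay below the controls; the fall with CMV-siRE was 0.79 ± 0.17 (adjusted p = 0.0359), and the log2 fold change with CMV-GE11-siRE was -0.68 ± 0.17 (adjusted p = 0.214). Tap2 passed in 1 of the 6 comparisons. It had 3708, 3993, 3439 and 4543 in CMV-GE11-siRE spleens, 4367, 3766, 4538 and 4382 in CMV-siRE spleens and 7900.4, 5087, 5564 and 4647 in CMV-scrR spleens, with both treated groups below the controls. It fell by 0.54 ± 0.15 (adjusted p = 0.0453) in spleen with CMV-GE11-siRE, and its other log2 fold changes in these organs, between -0.62 and -0.42, did not pass.

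Of the immunoproteasome subunits, Psmb9 fell in liver with both circuits, Psmb8 in liver with CMV-GE11-siRE, and Psmb9 and Psmb10 in spleen with CMV-GE11-siRE. In liver Psmb9 had 469, 698, 525 and 891 normalised counts with CMV-GE11-siRE, 726, 615, 621 and 837 with CMV-siRE and 1909.6, 1405, 2042 and 1062 with CMV-scrR. All treated libraries lay below all controls, and Psmb9 fell by 1.31 ± 0.22 (adjusted p = 0.00771) with CMV-GE11-siRE and by 1.16 ± 0.22 (adjusted p = 0.0136) with CMV-siRE. In spleen it had 2323, 3088, 2091 and 2915 with CMV-GE11-siRE, 2719, 2685, 2801 and 3511 with CMV-siRE and 6268, 3720.5, 4704 and 3618 with CMV-scrR, and fell by 0.80 ± 0.17 (adjusted p = 0.0234) with CMV-GE11-siRE. Psmb10 had 1374, 1844, 1299.8 and 1638 in CMV-GE11-siRE spleens, 1530.0, 1764, 1647 and 2434 in CMV-siRE spleens and 4471, 2396, 3069 and 2159 in CMV-scrR spleens. Its CMV-GE11-siRE libraries lay below the controls and its highest CMV-siRE library among them, and it fell by 0.93 ± 0.21 (adjusted p = 0.0255) with CMV-GE11-siRE. Psmb8 had 841, 1114, 1091 and 1460.5 in CMV-GE11-siRE livers, 1204, 1339, 1302 and 1506 in CMV-siRE livers and 2226, 1715, 2320.0 and 1339.6 in CMV-scrR livers. The lowest control, replicate 4, lay within the range of both treated groups, and Psmb8 fell by 0.75 ± 0.18 (adjusted p = 0.0337) with CMV-GE11-siRE. The constitutive subunits that these replace did not pass in these organs with either circuit: Psmb5, Psmb6 and Psmb7 had log2 fold changes between -0.43 (Psmb5, spleen, CMV-GE11-siRE) and 0.17 (Psmb7, lung, CMV-siRE), and 0 of the 14 genes listed for the constitutive 20S proteasome passed.

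The activator Nlrc5 had 1821, 2057, 1811 and 1651 in CMV-GE11-siRE lungs, 1407, 1389, 2251 and 1430.2 in CMV-siRE lungs and 5237, 2665, 4668 and 2332 in CMV-scrR lungs. Every treated library lay below every control, with control replicates 1 and 3 at about the level of each other and well above the remaining ones. Nlrc5 fell by 1.15 ± 0.23 (adjusted p = 0.0317) with CMV-siRE, and its log2 fold change with CMV-GE11-siRE was -0.94 ± 0.23 (adjusted p = 0.214). In liver it had 968, 996, 853 and 1267 with CMV-GE11-siRE, 1403, 728, 903 and 1415 with CMV-siRE and 2309, 1556, 2057 and 1604 with CMV-scrR, without overlap, and fell by 0.88 ± 0.21 (adjusted p = 0.0326) with CMV-GE11-siRE and by 0.79 ± 0.21 (adjusted p = 0.0483) with CMV-siRE. In spleen it had 3401, 3243, 3525 and 4712 with CMV-GE11-siRE, 3703, 2808, 4050.2 and 3617 with CMV-siRE and 7327, 5445, 6732 and 5425 with CMV-scrR, and fell by 0.75 ± 0.15 (adjusted p = 0.0163) with CMV-GE11-siRE and by 0.81 ± 0.15 (adjusted p = 0.00689) with CMV-siRE. No treated spleen library reached the lowest control.

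Between the siRNA circuits, CMV-GE11-siRE and CMV-siRE, 0 of 10 genes passed in any organ, at adjusted p of 0.553 or more, with 1 member in kidney and 0 in the other organs at an unadjusted limma p under 0.05, and 1 in spleen and 0 in the other organs at an exact permutation p under 0.05. The shares of all tested genes that passed were 0.0069% in liver, 0.0619% in lung, 0.112% in spleen and 0% in kidney and thymus. An unadjusted limma p under 0.05 was found for 3.97% of all genes in kidney, 7.66% in liver, 9.97% in lung, 9.79% in spleen and 2.81% in thymus. The median log2 fold change of the 10 genes was -0.07 in liver, -0.00088 in lung, -0.15 in spleen, -0.85 in kidney and 0.01 in thymus. In spleen, H2-K1 was the single gene whose CMV-GE11-siRE libraries all lay below the CMV-siRE libraries, a separation seen in 2.94% of all tested genes.

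Kidney varied more between libraries than between circuits. Psmb8 had 661, 3844, 419.7 and 9033 normalised counts with CMV-GE11-siRE, 7444, 7046, 926 and 3576 with CMV-siRE and 1402, 727, 2475 and 461 with CMV-scrR, a range of 21.5 times. Replicates 2 and 4 of CMV-GE11-siRE and replicates 1, 2 and 4 of CMV-siRE lay above every control, while replicate 3 of CMV-siRE and replicates 1 and 3 of CMV-GE11-siRE were low. B2m, the least variable, had 22468, 46088, 14764 and 42439 with CMV-GE11-siRE, 53906, 47065, 18722 and 33817 with CMV-siRE and 25902, 20624, 36789 and 16073 with CMV-scrR, a range of 3.65 times. Over the 10 genes the highest library stood a median of 7.39 times above the lowest in kidney and 2.56 times in liver. The estimates were above 0 for 10 of 10 genes with CMV-siRE (median 1.13) and for 9 of 10 with CMV-GE11-siRE (median 0.38), and 0 of 10 passed in either comparison, with 0 of 10 at an unadjusted p under 0.05 by limma or by exact permutation. Of all 15105 genes tested in kidney, 0% passed against CMV-scrR with either circuit, and the unadjusted p was under 0.05 for 1218 with CMV-GE11-siRE and 1486 with CMV-siRE. A fit of the 8 CMV-siRE and CMV-scrR libraries alone leaves the CMV-GE11-siRE libraries out of the estimate of spread. There 3.21% of all genes passed as higher and 4.36% as lower, and 0 of 10 members passed. The class II gene H2-Ab1 went up and down with the same libraries, at 8678, 28737, 5409 and 51582 with CMV-GE11-siRE, 35428, 31024, 6965 and 17838 with CMV-siRE and 11310.0, 9391, 21762 and 5985 with CMV-scrR. Ptprc had 1387, 501, 691 and 50.4 with CMV-GE11-siRE, 786, 245, 257 and 426 with CMV-siRE and 404, 499.9, 559.9 and 441 with CMV-scrR, lowest in CMV-GE11-siRE replicate 4, the library with the most Psmb8. In that library mitochondrial genes took 3.69% of the values, against 9.60% to 12.7% in the other kidney libraries. The rest of the leukocyte list went the other way from Ptprc in kidney, and none passed. With CMV-GE11-siRE log2 fold changes were -0.26 for Ptprc, 1.16 for Cd52, 0.68 for Cd53, 1.23 for Coro1a and 0.69 for Laptm5. With CMV-siRE they were -0.31, 0.67, 0.41, 0.59 and 0.12 in that order. Other measures also set kidney libraries apart. Dbp, an output gene of the circadian clock, had 78.8, 1321, 52.9 and 790.3 with CMV-GE11-siRE, 871, 1181, 2108 and 1096 with CMV-siRE and 57.6, 55.8, 109 and 76.3 with CMV-scrR, so all CMV-siRE libraries and CMV-GE11-siRE replicates 2 and 4 lay above the controls. The slope of a library's values on the exon length of the genes, in log2 units relative to the median library per doubling of length, was 0.0478, -0.101, 0.0959 and -0.304 with CMV-GE11-siRE, -0.0751 to -0.0105 with CMV-siRE and 0.041 to 0.0816 with CMV-scrR. The CMV-siRE slopes all lay below the controls, as did those of CMV-GE11-siRE replicates 2 and 4, the replicates with the most Psmb8 in that group. The part of these differences in the kidney values was not tested.

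**Figure D4:**
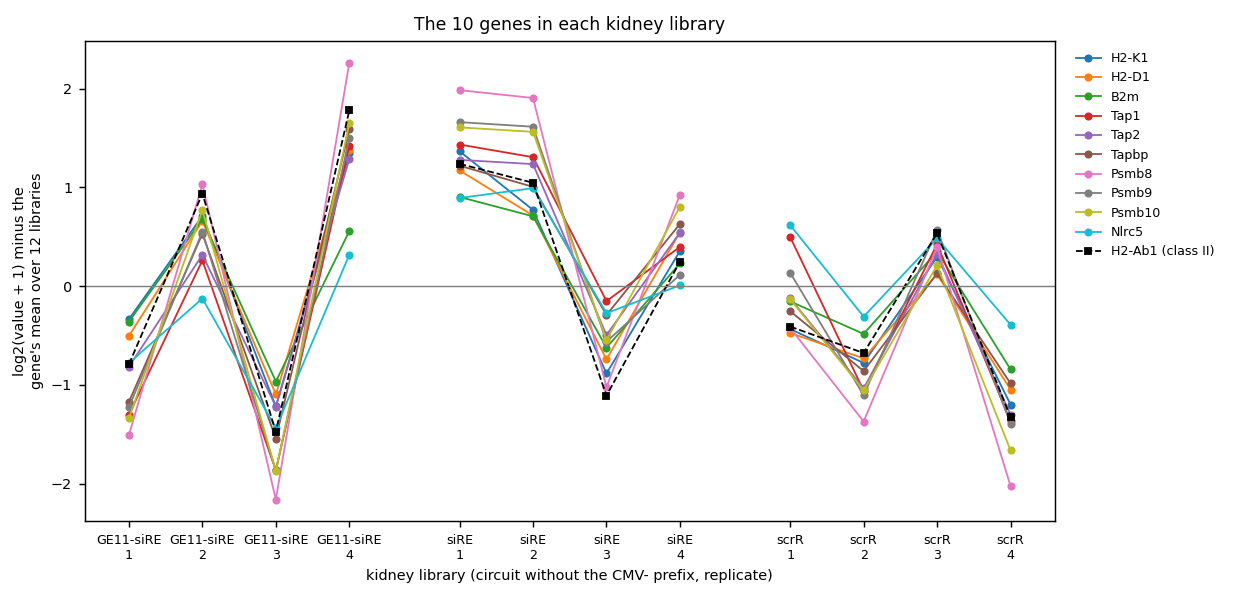
The 10 genes (colours) and the class II gene H2-Ab1 (black, dashed) in each of the 12 kidney libraries, as log2(value + 1) minus the gene's mean over the libraries; lines join the replicates of a circuit for legibility and carry no order. The genes go up and down together, with CMV-GE11-siRE replicate 4 highest and replicate 3 lowest for Psmb8, and for Psmb8 every circuit holds libraries on both sides of 0.

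In thymus the estimates were above 0, and no member passed. All 10 log2 fold changes were above 0 for CMV-GE11-siRE, with a median of 0.41, and for CMV-siRE, between 0.14 and 0.51 with a median of 0.35. In these comparisons 0 of 10 genes passed, against 0% of all genes with CMV-GE11-siRE and 0.00609% with CMV-siRE. For CMV-GE11-siRE, 1 member had an unadjusted limma p under 0.05 and 0 an exact permutation p under 0.05, and for CMV-siRE the counts were 0 and 3. Of all genes, 9.44% with CMV-GE11-siRE and 5.65% with CMV-siRE had an unadjusted limma p under 0.05. Psmb8 had 3862, 5332, 4016 and 9584 with CMV-GE11-siRE, 5399, 5175, 4877 and 5327 with CMV-siRE and 4307, 3645, 3864 and 4104 with CMV-scrR. The CMV-siRE libraries all lay above the controls, as they also did for Psmb9 and Psmb10, a separation upwards seen in 6.55% of all tested genes. CMV-GE11-siRE replicate 4 was the highest library of its group by far for Psmb8, and the same library held 48034 of H2-K1 against 14352 to 23029 in the other CMV-GE11-siRE thymus libraries. The slope on gene length was 0.0336, -0.0321, 0.0329 and -0.232 with CMV-GE11-siRE, -0.0569 to 0.00243 with CMV-siRE and 0.0376 to 0.071 with CMV-scrR, so the CMV-siRE libraries lay below the controls on that measure, and its part in the thymus values was not tested. In a fit of the 8 CMV-siRE and CMV-scrR libraries alone, which leaves CMV-GE11-siRE replicate 4 out of the estimate of spread, 6 of 10 genes passed as higher with CMV-siRE, against 2.87% of all genes as higher and 7.71% as lower, Psmb8 at 0.39 ± 0.08 (adjusted p = 0.011) among them.

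In tumour, CMV-GE11-siRE was set against CMV-scrR in libraries whose makeup differed widely: 41.9% of all tested genes passed, 22.1% as higher and 19.8% as lower. Of the 10 genes, 3 passed as higher (H2-K1, Tap2 and Tapbp) and 1 as lower (Psmb8). H2-K1 had 3863, 3118, 3232 and 6152 normalised counts with CMV-GE11-siRE, 3831, 2644, 1197 and 2646 with CMV-siRE and 2587, 1763, 1437 and 1479 with CMV-scrR. The CMV-GE11-siRE libraries all lay above the controls and the CMV-siRE libraries spread across both ranges, and the log2 fold change of CMV-GE11-siRE over CMV-scrR was 1.16 ± 0.34 (adjusted p = 0.0146), against -0.37 with the mitochondrial share in the model. Tap2 had 536, 555, 578 and 929 with CMV-GE11-siRE, 514, 273, 155 and 520.3 with CMV-siRE and 429, 240.2, 144 and 140.0 with CMV-scrR, with no overlap between the outer groups and a log2 fold change of 1.56 ± 0.42 (adjusted p = 0.00951). Tapbp had 1262, 1141, 1071 and 1447 with CMV-GE11-siRE, 1179, 847, 523 and 587 with CMV-siRE and 962, 859, 594 and 658 with CMV-scrR. Its CMV-GE11-siRE libraries were above all controls, and its log2 fold change was 0.70 ± 0.25 (adjusted p = 0.0412), against -0.38 with the mitochondrial share in the model. Psmb8 had 434, 368, 282 and 729 with CMV-GE11-siRE, 618, 1023, 1538 and 627 with CMV-siRE and 1313, 1848, 897 and 860.5 with CMV-scrR, the CMV-GE11-siRE libraries below all controls and the CMV-siRE libraries among them. It fell by 1.46 ± 0.36 (adjusted p = 0.00594) with CMV-GE11-siRE, and scaled by the column total it was at 0.63, which is -1.50 relative to the median of all genes on that scale. B2m, Psmb9 and Psmb10 had negative estimates (-0.74, -0.99 and -0.83) and H2-D1, Tap1 and Nlrc5 positive ones (0.62, 1.12 and 0.90), none of which passed. With the mitochondrial share in the model all 6 were below 0. Separation of the groups was found for 3 genes above and 1 below, against 23.7% and 21.5% of all tested genes.

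The tumour values against 0 moved with the scale of the libraries. When each library was divided by its column total, the all-gene median moved to 2.13, 8 of the 10 genes passed as higher and 0 as lower, against 80.4% and 0.403% of all genes, and H2-K1, Tap2, Tapbp and Psmb8 had log2 fold changes of 3.25, 3.65, 2.79 and 0.63, or 1.12, 1.52, 0.66 and -1.50 relative to that median. Scaled by the total without mitochondrial genes, where the median of all genes was 0.81, 5 passed as higher and 0 as lower, against 43.1% and 4.27% of all genes, with 1.92, 2.32, 1.46 and -0.70 for the same genes, or 1.10, 1.51, 0.64 and -1.51 relative to the median. Relative to the median of all genes, none of the 10 genes changed direction under either scaling. Either scaling moves all genes of a library by nearly the same log2 amount. That outcome was therefore fixed in advance and is no check of direction. When the share of mitochondrial genes entered the model as a covariate, 0 genes of the table passed, and H2-K1, Tapbp, H2-D1, Tap1 and Nlrc5, above 0 as deposited, were below 0, with H2-K1 and Tapbp at -0.37 and -0.38. The share of mitochondrial genes differed so far between the circuits that its part and that of the circuit cannot be told apart.

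**Figure D5:**
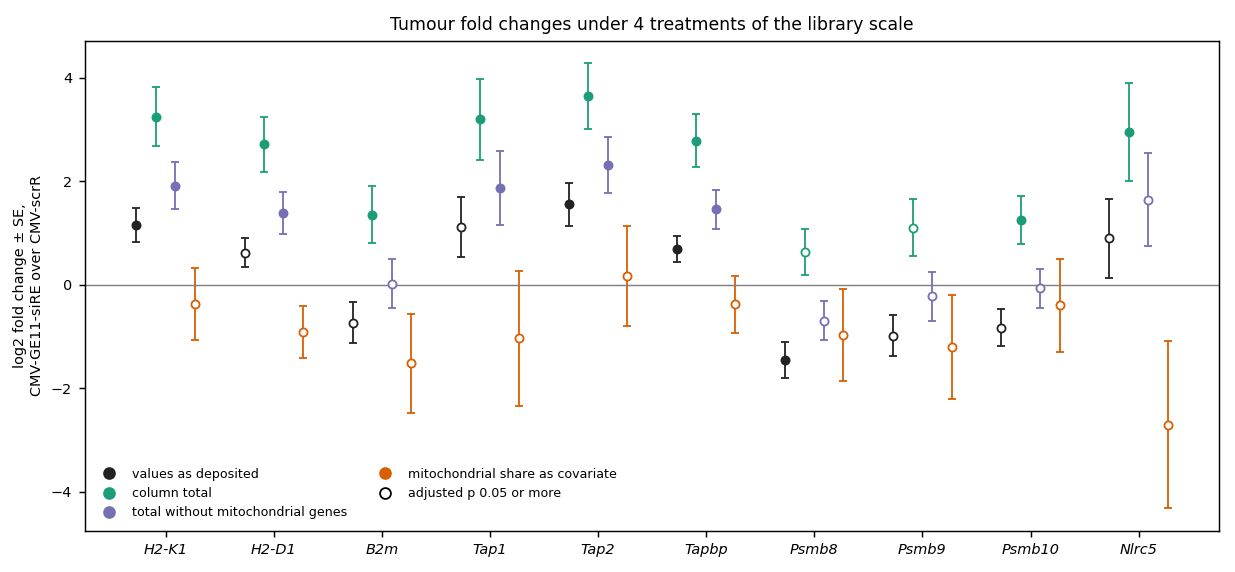
Log2 fold change with standard error, CMV-GE11-siRE over CMV-scrR in tumour, of the 10 genes with the values as deposited (black), scaled by the column total (green), scaled by the total less the mitochondrial share (purple) and with that share as a model term (orange); filled points passed the adjusted threshold of 0.05. Psmb8 is at -1.46 as deposited and at 0.63 when scaled by the column total, where the median of all genes is 2.13, and no point is filled with the model term.

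Marker lists in tumour also differed between the circuits. Alveolar type 2 genes rose in 5 of 5 (median 2.32), and macrophage genes fell in 4 of 6 (median -1.18) with a summed level of 954 to 1295 in CMV-GE11-siRE libraries against 1388 to 3502 in CMV-scrR libraries. Of 14 constitutive 20S proteasome genes, 9 fell with CMV-GE11-siRE (median -0.68), among them Psma6 (-1.22), Psmb7 (-1.17), Psma5 (-1.14) and Psmb2 (-0.90). The part of these differences in the tumour values of the 10 genes was not tested. With CMV-siRE against CMV-scrR, 0 of the 10 genes passed, against 0.256% of all genes, and 0 had an unadjusted p under 0.05 by limma or exact permutation. Of all genes, 21.4% had an unadjusted limma p under 0.05 in that comparison. With CMV-GE11-siRE against CMV-siRE, 0 of 10 passed, against 0.0214% of all genes. An unadjusted limma p under 0.05 was found for 4 of 10, against 26.2% of all genes. Tap2, with every CMV-GE11-siRE library above every CMV-siRE library, was the 1 with an exact permutation p under 0.05, a separation upwards seen in 6% of all tested genes.

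Other class I genes also fell in liver and spleen. Of 16 further class I genes, which include other class I heavy chains and loading factors, 7 fell in spleen with CMV-GE11-siRE and 5 with CMV-siRE, 6 and 4 fell in liver, and 1 in lung with CMV-siRE, with none passing as higher in these 3 organs. The median log2 fold change of that list was -0.48 in spleen, -0.32 in liver and -0.34 in lung with CMV-GE11-siRE. In spleen with CMV-GE11-siRE the largest falls were those of the non-classical class I genes H2-Q7, with a log2 fold change of -0.83 ± 0.10 (adjusted p = 0.00203), and of H2-Q10, H2-Q6 and H2-T22, at -0.81, -0.70 and -0.67. Tapbpl, a tapasin relative that edits the peptide cargo, fell by 0.76 ± 0.14 (adjusted p = 0.0157) in lung with CMV-siRE and by 0.69 ± 0.16 (adjusted p = 0.0281) in liver with CMV-GE11-siRE. The H2 genes are close in sequence to H2-K1 and H2-D1, so part of their counts may be shared reads.

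Of 16 interferon signalling genes, 15 of them tested in liver, 7 fell in liver and 6 in spleen with CMV-GE11-siRE, and 5 in liver, 6 in spleen and 4 in lung with CMV-siRE, while 0 passed in lung with CMV-GE11-siRE. Irf1, which binds interferon response elements, had 3586, 3547, 3527 and 2945 in CMV-GE11-siRE lungs, 3296, 3144, 3221 and 3279.6 in CMV-siRE lungs and 7324, 4365, 9065 and 4468 in CMV-scrR lungs. Control replicates 1 and 3 were again the highest, and all treated libraries lay below all controls. Irf1 fell by 0.89 ± 0.19 (adjusted p = 0.0359) in lung with CMV-siRE. Socs1, an inhibitor of interferon signalling that interferons induce, fell by 1.55 ± 0.28 (adjusted p = 0.0121) in spleen with CMV-GE11-siRE and by 1.88 ± 0.44 (adjusted p = 0.0322) in liver with CMV-GE11-siRE.

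The class II genes, which present peptides to CD4+ T cells, all fell in liver. This held for 7 of 7 genes with both circuits, with a median log2 fold change of -1.61 with CMV-GE11-siRE and -1.67 with CMV-siRE, against 1 of 7 in lung with CMV-siRE and 1 of 7 in spleen with CMV-GE11-siRE. H2-Ab1 had 1306, 1200.3, 1599 and 1953 in CMV-GE11-siRE livers, 1685, 1129.7, 1076 and 1571 in CMV-siRE livers and 4587, 4481, 7469.6 and 4465 in CMV-scrR livers, with no overlap. It fell by 1.78 ± 0.20 (adjusted p = 0.000947) with CMV-GE11-siRE and by 1.93 ± 0.20 (adjusted p = 0.000336) with CMV-siRE. Ciita, the class II counterpart of Nlrc5, fell by 1.61 ± 0.31 (adjusted p = 0.0139) with CMV-GE11-siRE and by 1.35 ± 0.31 (adjusted p = 0.0293) with CMV-siRE in liver, and by 1.37 ± 0.22 (adjusted p = 0.0116) with CMV-siRE in lung.

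Marker lists of immune and other cells were read beside these falls. Of all tested genes, 2.19% passed as higher in liver with CMV-GE11-siRE, 2.06% in liver with CMV-siRE and 0.48% in lung with CMV-siRE. The shares that passed as lower are given above. In liver, leukocyte genes passed in 0 of 5 with either circuit and summed to 3438 to 4841 in CMV-GE11-siRE libraries, 4533 to 5741 in CMV-siRE libraries and 4184 to 6039 in CMV-scrR libraries, while of 6 macrophage genes C1qa alone fell, by 0.59 ± 0.13 (adjusted p = 0.0274) with CMV-GE11-siRE and by 0.58 ± 0.13 (adjusted p = 0.0292) with CMV-siRE. Of 6 NK and cytotoxic cell genes Gzmb alone passed in liver, and fell by 0.71 ± 0.18 (adjusted p = 0.0391) with CMV-GE11-siRE, and the list summed to 392 to 1131 with CMV-GE11-siRE, 757 to 1389 with CMV-siRE and 704 to 918 with CMV-scrR. Of 6 endothelial genes in liver, Kdr and Tek rose with CMV-GE11-siRE, by 0.63 ± 0.13 (adjusted p = 0.0188) and 0.66 ± 0.14 (adjusted p = 0.0212), and Kdr with CMV-siRE, by 0.56 ± 0.13 (adjusted p = 0.0316), and the list summed to 5874 to 6410 with CMV-GE11-siRE, 5295 to 6827 with CMV-siRE and 4151 to 6234 with CMV-scrR. In spleen, 5 of 6 genes of NK and cytotoxic cells fell with CMV-GE11-siRE and 1 of 6 with CMV-siRE, and the list summed to 1314 to 2234 with CMV-GE11-siRE, 2009 to 4339 with CMV-siRE and 3680 to 4990 with CMV-scrR. The cytotoxic granule protease Gzmb fell by 2.34 ± 0.26 (adjusted p = 0.00124) with CMV-GE11-siRE. Dendritic cell genes fell in 4 of 5 in spleen with CMV-siRE, and summed to 4064 to 4345 with CMV-GE11-siRE, 2888 to 3346 with CMV-siRE and 4243 to 6592 with CMV-scrR. In lung, 4 of 6 macrophage genes rose with CMV-siRE, the opposite direction to the members, and the list summed to 8963 to 11096 with CMV-GE11-siRE, 13773 to 15960 with CMV-siRE and 9805 to 14757 with CMV-scrR. Erythroid genes fell in 3 of 5 in lung and 4 of 5 in spleen with CMV-siRE. Adgre1 alone of the macrophage genes passed in spleen with CMV-siRE, and rose by 0.75 ± 0.19 (adjusted p = 0.0414). Among neutrophil genes in liver, S100a9 rose by 1.43 ± 0.35 (adjusted p = 0.0354) with CMV-siRE, while S100a8, Ngp and Retnlg did not pass. The hepatocyte gene Apoa1 rose by 3.31 ± 0.62 (adjusted p = 0.0212) in lung with CMV-siRE, and Serpina3k by 4.04 ± 0.83 (adjusted p = 0.0318). Alb and Ttr did not pass there. No gene of the leukocyte, macrophage, NK and dendritic cell lists was at 0 in all 12 libraries of these organs, and the part of these cells in the results was not tested.

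Within a tissue the 10 genes went together from library to library. The correlation of a gene with the mean of the other 9, over the 12 libraries of a tissue on the log2(value + 1) scale, had a median of 0.97 in kidney, 0.95 in spleen, 0.95 in thymus, 0.93 in lung, 0.93 in liver and 0.54 in tumour. These libraries share their circuit, depth and normalisation, and the values are descriptions. Each correlation was taken over the libraries of all circuits together. In every tissue it therefore holds differences between circuits as well as those between libraries of a circuit. In tumour the lowest value was -0.03.

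Among 12089 genes ranked by their likeness to the mean of the 10, taken as the median over the 6 tissues of the correlation over 12 libraries, the first 5 were H2-T23 (0.98), H2-T22 (0.97), Ifi47 (0.96), H2-DMa (0.96) and H2-Q4 (0.95). H2-T23, H2-T22 and H2-Q4 are class I heavy chains, Ifi47 is an interferon-inducible GTPase and H2-DMa is a class II peptide loader. The median of all ranked genes was 0.04 and the 95th percentile was 0.63. H2-T23 had a correlation of 0.98 in kidney, 0.98 in lung and 0.46 in tumour. By list, the median was 0.91 for the other class I genes, 0.90 for class II genes, 0.67 for interferon signalling and 0.35 for the constitutive proteasome, against 0.49 for NK and cytotoxic cell markers (4 of 6 ranked), 0.47 for macrophage, 0.41 for leukocyte, 0.18 for T cell and 0.06 for B cell markers.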

How the data were processed

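RNA sequencing values of 72 libraries, 4 per circuit in each of 6 tissues, were analysed. Total RNA was extracted with TRIzol and made into libraries with a TruSeq RNA kit, per the labels' protocols. The deposited values are a normalised signal per gene: fractional counts that the authors divided by a size factor per library, separately in each tissue table, with DESeq2 named in the submitters' processing notes. The aligner, counter, genome build and use of strand were not given in the sources used here. Whole reads could not be recovered from the values (50.3% to 72.6% of low values were whole within a tolerance of 0.1), so no count model was run, although a count test would otherwise be the usual choice. Symbols and positions come from GENCODE M21 on GRCm38, in which 35968 of 36047 identifiers matched with their version.

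Values were taken as log2(value + 1). Genes reaching 10 in 4 or more of the 12 libraries entered limma 3.58.1 (trend, R 4.3.3), in 1 fit over the 12 libraries of the tissue, 14044 to 16421 genes, with Benjamini-Hochberg adjustment over the genes of a comparison. Exact permutation tests, 2-sided, of 4 against 4 libraries cannot go below p = 0.0286; 46 of 180 such tests of the 10 genes reached it, which adjusts to 0.112 over the 180. Fold changes on the log2(value + 1) scale understate the change of low genes. Tables were computed with Python 3.11.15, pandas 2.3.3 and scipy 1.17.1. Tested on data simulated for CMV-siRE against CMV-scrR with 200 changed genes, the fit recovered 72% of changes of 1 log2 unit in lung, 70% in liver, 62% in spleen, 50% in thymus, 47% in kidney and 15% in tumour.

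The 10 genes and the gene and marker lists were chosen with earlier results of these data known. All 10 were described, and of each pathway list up to 4 genes that passed, with the largest changes first, were named, except 1 that is not reported here. Irf1, H2-Ab1, Ptprc and Dbp are shown by library, and Psmb5, Psmb6 and Psmb7 by value, after their values were seen. Replicate numbers did not pair the libraries: at most 2 of 12 same-numbered pairs in a tissue correlated above 0.1, with medians of -0.070 to 0.049. Alternatives in every tissue were the pseudocount, the filter, the libraries fitted, a replicate block, robust moderation, other scalings and leaving out libraries. The mitochondrial share as a covariate was run in tumour.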

Additional observations from a re-analysis of the deposited data

Results flagged for a closer look

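In 12 of 180 groups of 4 libraries, a rate near the 1 in 20 that chance gives, 1 library stood apart from the other 3. In tumour these were Tap1 in CMV-siRE replicate 3, the lowest at 61.1 normalised counts, and Tap2 and Psmb10 in CMV-GE11-siRE replicate 4, the highest at 929 and 612. In lung they were H2-K1 and Psmb8 in CMV-GE11-siRE replicate 4, the lowest at 33799 and 2344, and Nlrc5 in CMV-siRE replicate 3, the highest at 2251. In liver Tap2 was highest in CMV-GE11-siRE replicate 4, at 1338. In spleen H2-K1 was highest in CMV-scrR replicate 1, at 78641, and Psmb9 in CMV-siRE replicate 4, at 3511. In thymus B2m was highest in CMV-scrR replicate 3, at 20590.4, and Tap1 and Tapbp were lowest in CMV-siRE replicate 3, at 4380.5 and 3682.

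For 4 genes, all treated libraries lay above all controls in 1 tissue and below all controls in another. The tissues were normalised separately and the differences were not tested. With CMV-GE11-siRE over CMV-scrR, the log2 fold change of H2-K1 was higher in tumour than in lung by 1.49 and than in spleen by 1.76, and that of Tap2 was higher in tumour than in spleen by 2.10. That of Tapbp was higher in tumour than in lung by 1.37, than in liver by 1.57 and than in spleen by 1.45. With CMV-siRE over CMV-scrR, the log2 fold change of Psmb9 was higher in thymus than in liver by 1.499 and than in spleen by 0.95. The tumour values rest on the deposited scaling and moved when the mitochondrial share entered the model, as described above.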

How the results depend on the processing

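Over the members that passed, 432 alternative values were computed: 320 kept direction and call, 109 kept the direction without passing and 3 reversed. The reversals were all in tumour with CMV-GE11-siRE against CMV-scrR: H2-K1 at -0.37 and Tapbp at -0.38 when mitochondrial share was a covariate, whose cause was not tested, and Psmb8 at 0.63 scaled by the column total. That scaling moved the median of all genes to 2.13, and relative to it Psmb8 was at -1.50, so the sign against 0 follows the shift of all genes. In that comparison 8 members passed scaled by the column total and 0 with the covariate, and against CMV-siRE 6 passed scaled by the column total and 1 scaled by the total without mitochondrial genes. Fitting the 8 libraries compared alone gave 1 in lung with CMV-siRE, 5 in spleen with CMV-GE11-siRE and 6 in thymus with CMV-siRE. Of all genes, 1.28% then passed as lower in lung, 1.54% as lower in spleen and 2.87% as higher in thymus. With no filter, 5 passed in spleen with CMV-GE11-siRE, and with the replicate block 3, against 1.34% and 1.08% of all genes as lower. The block also gave 4 in liver with CMV-GE11-siRE, and it changed no other count of members. Both scalings, by the column total and by the total without mitochondrial genes, gave 3 in liver with CMV-siRE. Both gave 7 in spleen with CMV-GE11-siRE and changed no other count in the organs. With CMV-scrR replicates 1 and 3 both left out, chosen after seeing the data, counts were 1 in lung with CMV-siRE, 0 in liver with either circuit, and 1 in spleen with either circuit. In these comparisons at most 0.88% of all genes then passed as lower. Leaving out 1 library at a time gave 3 to 6 in tumour with CMV-GE11-siRE, 0 with CMV-siRE and 0 to 2 between the siRNA circuits. It gave 0 to 1 in lung with CMV-GE11-siRE and 1 to 3 with CMV-siRE, 3 to 7 and 1 to 5 in liver, and 1 to 9 and 3 to 5 in spleen, in the same order. In kidney and thymus it gave 0, as between the siRNA circuits in every organ. In the comparison of the siRNA circuits in tumour, 2 passed without replicate 1 of CMV-siRE. The precision is that of 4 libraries a group, and no count depth per value is known.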
